A study of Mus musculus with 2 samples.

Results

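Heterotrimeric G proteins and the regulators of G protein signaling (RGS proteins) were described in cultured dentate gyrus (DG) astrocytes of WT and β-arr1 KO mice. The members were every gene whose symbol begins with Rgs and a digit, is an α subunit symbol of the Gna series, is Gnb1 to Gnb5, or begins with Gng and a digit. In the joined tables, 47 of 16302 gene symbols met this rule. The gene names deposited with the values described 27 of them as guanine nucleotide binding proteins, 18 as regulators of G protein signaling and 2 as binding proteins of an RGS protein, so the symbols and the names gave the same families.

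A heterotrimeric G protein carries the signal of a seven-transmembrane receptor into the cell. The receptor makes the α subunit exchange GDP for GTP, and the α subunit and the βγ dimer then act on separate effectors such as adenylyl cyclase, phospholipase Cβ and ion channels. RGS proteins speed up GTP hydrolysis by the α subunit and so shorten the signal, while β-arrestins such as β-arr1 bind the phosphorylated receptor and uncouple it from the G protein. In astrocytes, receptors coupled to Gq and Gi/o are known to set off calcium signals.

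Both groups were C57BL/6 mice by the labels, and the methods of the study give the KO lines a C57BL/6J background. The astrocytes came from the dentate gyrus of adult animals, were grown in medium with fetal bovine serum, and were shaken, a step meant to remove dividing cells, oligodendrocyte progenitors and neurons. The KO mice lack Arrb1 in every cell, so the deletion was not limited to astrocytes. Mice of both genotypes were littermates or came from lines bred separately as homozygotes, and which of these gave the sequenced cultures is not stated. The labels describe the cDNA as pooled, and 1 library was sequenced per genotype, so the values carry no spread between replicates and genotype was not tested.

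The unit was FPKM (fragments per kilobase of transcript, scaled to the mapped fragments of the library), which the authors computed with Cufflinks and which allows levels to be compared between genes per length. The depth was estimated at 9.54 M fragments for the WT library and 9.82 M for the other. For the deleted gene Arrb1, the tables gave 7.62 (WT) and 2.72 FPKM (KO), and the ratio was 0.358. The astrocyte markers summed to 404 (WT) and 431 FPKM (β-arr1 KO), with 11 of 12 markers analysed, but microglia markers summed to 1265 and 978 FPKM, with 12 of 12 markers analysed, so RNA of microglia genes was abundant in both cultures. The libraries also differed in 4 Y chromosome genes, of which 4 were listed in KO (8.44 FPKM in all) and 0 in WT. Genotype and this difference between the libraries cannot be told apart. In such bulk RNA, fewer cells of a type and less RNA per cell cannot be told apart either.

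Both tables listed 45 of the 47 members. Of these, 40 reached 1 FPKM in at least one library and were analysed, and 5 stayed below it. The 2 remaining members, Gnat1 and Gng3, were listed in one table only. The ratio is the FPKM of the β-arr1 KO library divided by that of the WT library, and members above 3/2 or below 2/3 were counted as changed. The 95% intervals given with the ratios were computed from estimated fragments per gene, and they cover counting error only.

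The ratio was above 3/2 in 6 of the 40 analysed members (15.0%), and 7.90% of all 12171 analysed genes lay above this limit. These 6 were Gnal, Gnao1, Gnaz, Gnb4, Rgs8 and Rgs16. The ratio was below 2/3 in 3 members (7.50%), namely Gna15, Rgs1 and Rgs5, beside 6.74% of all analysed genes. In either direction 9 members (22.5%) were past the limits, beside 14.6% of all analysed genes. The share of all genes past the limits was higher at low levels. Among members with a mean of 10 FPKM or more, 3 of 21 were past the limits, against 7.81% of all genes at that level, and among members with a lower mean, 6 of 19 were, against 22.0% of all such genes. With so few members, these shares are a description, and nothing particular to the family was read from them.

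The median log2 ratio was 0.12 over the 40 analysed members and 0.02 over all analysed genes. The ratio was above 1 in 27 members (67.5%) and in 53.1% of all analysed genes. The median size of the log2 ratio, without its sign, was 0.24 in the members and 0.19 in all analysed genes. The counting interval left out 1 in 23 members, of which 17 were higher in KO and 6 lower. All 9 changed members were among these 23. The other 14 lay within the limits. A counting interval that leaves out 1 does not stand in for replicates. The share of all analysed genes with such an interval is not given here, so nothing about the members was read from this count.

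**Figure D1:**
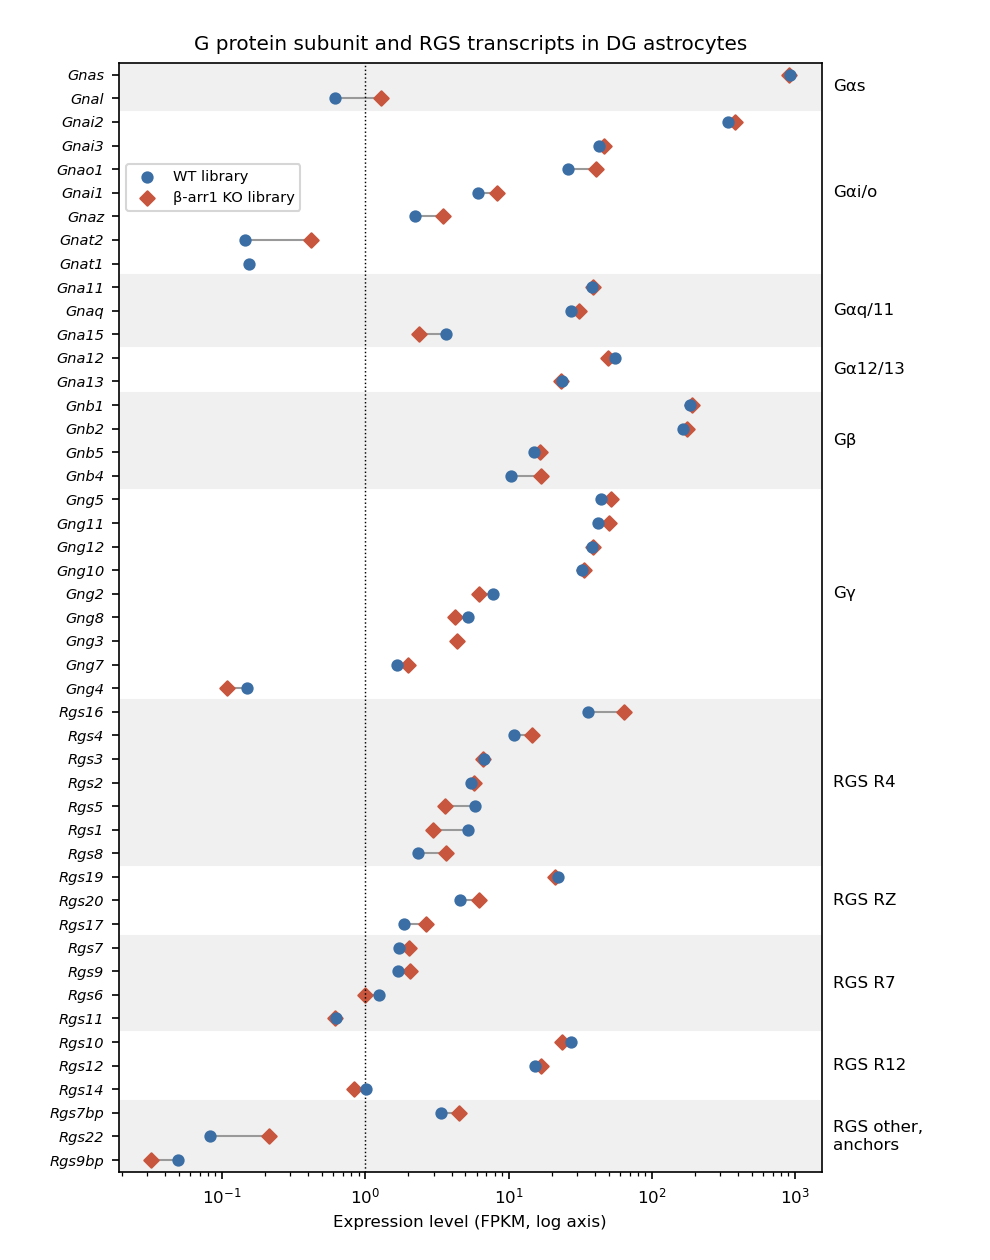
Level of each of the 47 members in FPKM (log axis), grouped by subfamily, with the WT library as blue circles and the β-arr1 KO library as red diamonds. The dotted line marks 1 FPKM. Gnas was highest at 919 and 901 FPKM, and Gnat1 and Gng3 have 1 symbol each because only one table listed them.

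Stimulatory α subunits activate adenylyl cyclase. Gnas, which encodes Gαs and comes from an imprinted locus with several alternative promoters, was the highest of all members. It was at 919 (WT) and 901 FPKM (β-arr1 KO), and it ranked 24 and 28 among all genes of the respective table. Its ratio of 0.980 (95% interval, 0.965 to 0.995) lay close to 1. GENCODE annotates 22 transcripts at Gnas, and the deposited value is 1 number for the whole locus, so the balance of its promoters is not visible. Gnal, which encodes the olfactory and striatal form Gαolf, was at 0.617 (WT) and 1.29 FPKM (β-arr1 KO). Its ratio of 2.08 was the highest of the analysed members, but only 32 and 69 fragments were estimated for it, with an interval of 1.35 to 3.27. Gnal lies on chromosome 18 of mm9 from 67247990 to 67386445, and its span holds Chmp1b at 16.9 (WT) and 14.4 FPKM (β-arr1 KO) and overlaps Mppe1 at 4.80 and 4.97 FPKM. The sum of the 3 rows was 22.3 (WT) and 20.6 FPKM (β-arr1 KO), with a ratio of 0.926, which is lower in KO. With 1 FPKM added to both libraries, the ratio of Gnal was 1.41.

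Inhibitory α subunits of the Gi/o class lower cyclic AMP and release βγ dimers that act on ion channels. All 5 analysed members of this class had ratios above 1, from 1.08 to 1.58, and 2 of them were above 3/2. Of all analysed genes, 53.1% lay above 1 and 7.90% above 3/2. The class summed to 421 (WT) and 480 FPKM (β-arr1 KO). Most of this was Gnai2, at 343 (WT) and 381 FPKM (β-arr1 KO), with a ratio of 1.11 (interval, 1.07 to 1.15). Gnai3 was at 42.9 and 46.3 FPKM, which gave a ratio of 1.08 with an interval (1.000 to 1.17) that did not leave out 1. Gnai1 was at 6.11 and 8.33 FPKM, which gave a ratio of 1.36 (interval, 1.12 to 1.66) that stayed within the limits.

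Gnao1, which encodes Gαo, the most abundant α subunit of neurons, was at 26.2 (WT) and 40.5 FPKM (β-arr1 KO). Its ratio of 1.55 (log2 ratio, 0.63) had an interval of 1.42 to 1.69 at about 822 and 1311 fragments, so at this depth the counting error reached below 3/2 but not down to 1. Gnao1 (NCBI gene 14681) lies on the plus strand of chromosome 8, and the WT row ran from 96334453 to 96493288, with a KO row that started 2 bases later. Gnaz, which encodes the pertussis toxin-insensitive Gαz, was at 2.22 (WT) and 3.50 FPKM (β-arr1 KO). Its ratio was 1.58 (interval, 1.16 to 2.15) from an estimated 71 and 115 fragments. It lay within the limits when 1 FPKM was added to both libraries. The Gnaz row ended 1012 bases further downstream in KO (chromosome 10, 74429970 to 74479634) than in WT, and the KO table also listed Rtdr1 across this span at 0.200 FPKM.

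The order of the 5 analysed genes of the Gi/o class was the same in both libraries, from Gnai2 through Gnai3, Gnao1 and Gnai1 to Gnaz. The gap between Gnai3 and Gnao1 was smaller in KO, at 46.3 and 40.5 FPKM, than in WT, at 42.9 and 26.2 FPKM.

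The transducins Gnat1 and Gnat2, which serve phototransduction in rods and cones, were near the detection limit. Gnat2 was at 0.144 (WT) and 0.419 FPKM (β-arr1 KO), an estimated 3 and 10 fragments, and was not analysed further. Gnat1 was listed in WT only, at 0.154 FPKM from an estimated 3 fragments. In the KO table the Gnai2 row ran from 107516469 to 107581923 on chromosome 9 and took in the whole Gnat1 locus, whereas the WT row of Gnai2 ended at 107537673. Gnat1 therefore has no KO value of its own, and its absence from that table does not measure its level. The span also holds Slc38a3, at 8.62 and 13.5 FPKM, and the ratio of all rows summed was 1.12.

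The Gq/11 class activates phospholipase Cβ. Gna11 was at 38.0 (WT) and 39.1 FPKM (β-arr1 KO), with a ratio of 1.03 (interval, 0.951 to 1.12). Gnaq was at 27.2 and 30.9 FPKM, which gave a ratio of 1.14 (interval, 1.06 to 1.22). These 2 broadly expressed genes were thus within the limits. Gna15, whose product Gα15 is found mainly in blood-derived cells, was at 3.66 (WT) and 2.39 FPKM (β-arr1 KO). Its ratio was 0.653, just below 2/3, with a wide interval of 0.431 to 0.981 at about 63 and 42 fragments, and it was 0.728 with 1 FPKM added to both libraries. Gna15 (NCBI gene 14676) lies on the minus strand of chromosome 10 of mm9, from 80965059 to 80987016 in the WT table.

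In the G12/13 class, Gna12 was at 55.1 (WT) and 49.6 FPKM (β-arr1 KO), with a ratio of 0.900 (interval, 0.840 to 0.964). Gna13 was at 23.6 and 23.2 FPKM, which gave a ratio of 0.983. Neither gene of this class was past the limits.

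The β subunits were led by Gnb1 and Gnb2, which pair with most γ subunits. Gnb1 was at 185 (WT) and 192 FPKM (β-arr1 KO), with a ratio of 1.04, and Gnb2 was at 165 and 175 FPKM, which gave a ratio of 1.06. Gnb5, which differs from the other β subunits in that it pairs with RGS proteins of the R7 class, was at 15.0 and 16.6 FPKM, which gave a ratio of 1.10 (interval, 0.933 to 1.30). Gnb4 was the only β subunit past the limits. It was at 10.4 (WT) and 16.9 FPKM (β-arr1 KO). The ratio was 1.63 (log2 ratio, 0.70), with an interval of 1.47 to 1.81 at about 578 and 969 fragments. The gene (NCBI gene 14696) lies on the minus strand of chromosome 3. Its row ran from 32482450 to 32515457 in WT and from 32480259 to 32515457 in KO, so the KO row reached 2191 bases further at the 3′ end. The interval takes the same length for both libraries and does not cover this difference. Gnb3 was not analysed here.

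In the γ subunits, which carry the lipid anchor of the βγ dimer, none of the 7 analysed members was past the limits, and their ratios ran from 0.799 to 1.19. Gng5 was at 44.4 (WT) and 52.2 FPKM (β-arr1 KO), with a ratio of 1.18 (interval, 1.08 to 1.28). Gng11 was at 42.4 and 50.3 FPKM, which gave a ratio of 1.19 (interval, 1.01 to 1.39). Gng12 (38.2 and 38.7 FPKM) and Gng10 (32.6 and 33.7 FPKM) differed less, with ratios of 1.01 and 1.03. Gng2 had the lowest ratio of the class, at 7.77 (WT) and 6.21 FPKM (β-arr1 KO), where the ratio was 0.799 and the interval 0.666 to 0.957. The order of the 4 highest γ subunits, Gng5, Gng11, Gng12 and Gng10, was the same in both libraries.

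Gng3, a γ subunit of neurons, was listed in KO only, at 4.36 FPKM. Its KO row, on chromosome 19 from 8911419 to 8913736, overlaps the row of Bscl2, which was at 37.5 (WT) and 25.3 FPKM (β-arr1 KO). The rows at this place summed to 37.5 (WT) and 29.7 FPKM (β-arr1 KO), with a ratio of 0.792. Gng3 has no WT value of its own, so no ratio was formed.

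Within each class, a few genes made up most of the summed level. Gnas held 61.8% of the summed FPKM of the α subunits in WT and 59.0% in KO, and Gnai2 held 23.0% and 25.0%. Gnao1 held 1.76% and 2.65%. Gnb1 and Gnb2 held 49.3% and 43.9% of the β subunits in WT, and 47.9% and 43.8% in KO, while Gnb4 held 2.77% and 4.23%. The γ subunits were more even, with 25.7% for Gng5, 24.6% for Gng11, 22.2% for Gng12 and 18.9% for Gng10 in WT. The classes summed to 1488 and 1528 FPKM for the α subunits, to 375 and 401 FPKM for the β subunits and to 172 and 192 FPKM for the γ subunits. These are levels of transcripts, and protein was not measured.

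**Figure D2:**
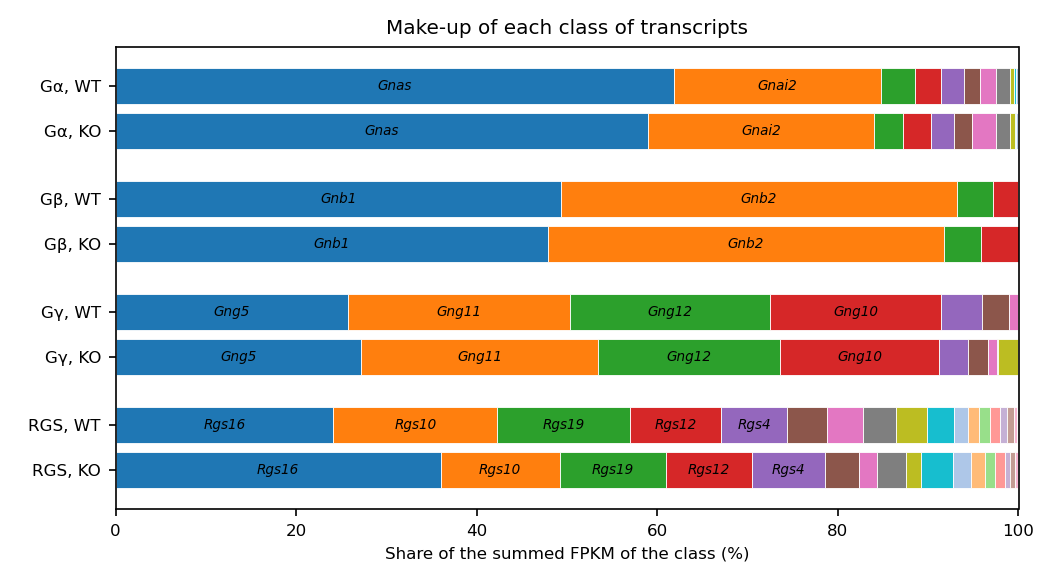
Share of each gene in the summed FPKM of its class (%), for the WT and β-arr1 KO libraries, with genes of at least 6% in a library named in the bar. Gnas and Gnai2 dominate the α subunits, Gnb1 and Gnb2 the β subunits, and the share of Rgs16 among RGS proteins is 24.1% in WT and 36.0% in KO.

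The 18 RGS proteins summed to 150 (WT) and 178 FPKM (β-arr1 KO). Rgs16 accounted for nearly all of this difference. It was at 36.1 (WT) and 64.0 FPKM (β-arr1 KO), and held 24.1% of the summed level of RGS proteins in WT and 36.0% in KO. The next genes were Rgs10, at 27.2 and 23.5 FPKM, Rgs19, at 22.1 and 21.0 FPKM, and Rgs12, at 15.2 and 16.8 FPKM. All changed RGS genes belonged to the R4 class of small RGS proteins, but nothing particular to this class was read from so few genes.

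R4 proteins act mainly on Gi/o and Gq α subunits. Of 7 analysed genes in this class, Rgs16 and Rgs8 were above 3/2, Rgs1 and Rgs5 were below 2/3, and Rgs2, Rgs3 and Rgs4 were within the limits. Of all analysed genes, 7.90% lay above 3/2 and 6.74% below 2/3. Rgs8, Rgs1 and Rgs5 had means under 10 FPKM, where 22.0% of all genes were past a limit. The ratio of Rgs16 was 1.77 (log2 ratio, 0.83), with an interval of 1.62 to 1.94 at about 747 and 1363 fragments, so the whole interval lay above 3/2. Over rescaling, summing and pseudocounts it stayed between 1.74 and 1.78. Rgs8, which is best known from Purkinje neurons, was at 2.32 (WT) and 3.67 FPKM (β-arr1 KO). Its ratio of 1.58 (interval, 1.26 to 1.99) rested on an estimated 125 and 203 fragments and lay within the limits with 1 FPKM added to both libraries.

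Rgs1, which is known from lymphocytes and other immune cells, was at 5.21 (WT) and 2.98 FPKM (β-arr1 KO). Its ratio of 0.573 (log2 ratio, -0.80) was the lowest of the analysed members, with an interval of 0.427 to 0.765 at about 131 and 77 fragments. It stayed below 2/3 under the same alternatives, from 0.563 to 0.642. The summed microglia markers had a ratio of 0.773, and their part in the value of Rgs1 was not tested. Rgs5, a marker of pericytes, was at 5.83 (WT) and 3.58 FPKM (β-arr1 KO), with a ratio of 0.615 (interval, 0.493 to 0.765) from an estimated 218 and 138 fragments. With 1 FPKM added to both libraries it was 0.672, just within the limits. Rgs4, a regulator with high levels in cortical neurons, was at 10.9 and 14.5 FPKM, which gave a ratio of 1.33 (interval, 1.14 to 1.56). Rgs2, which prefers Gq, was at 5.46 and 5.75 FPKM, and Rgs3 was at 6.70 and 6.62 FPKM. Their ratios of 1.05 and 0.988 had intervals that included 1.

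The other RGS classes held no changed gene. In the RZ class, which acts on Gαz and Gi, Rgs19 had a ratio of 0.952, Rgs20 was at 4.56 and 6.20 FPKM (ratio 1.36, interval 1.02 to 1.82) and Rgs17 was at 1.85 and 2.66 FPKM (ratio 1.44, interval 1.15 to 1.79). Rgs17 was the analysed member closest to 3/2 from inside and Gnao1, at 1.55, from outside, and at 2/3 these were Rgs6, at 0.793, and Gna15, at 0.653. In the R12 class, Rgs10, a small RGS protein with high levels in microglia, had a ratio of 0.862 (interval, 0.694 to 1.07), and Rgs12 and Rgs14 had ratios of 1.11 and 0.833. The R7 class, whose members bind Gβ5, was low throughout. Rgs7 was at 1.73 and 2.01 FPKM, Rgs9 at 1.69 and 2.04 FPKM and Rgs6 at 1.25 and 0.988 FPKM, with 19 to 66 estimated fragments each, so that no difference was detectable at this depth. The KO row of Rgs6 ended 269210 bases further than the WT row. The membrane anchor of the R7 class, Rgs7bp, was at 3.36 and 4.51 FPKM, which gave a ratio of 1.34 (interval, 1.10 to 1.63).

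Below 1 FPKM in both libraries were Gnat2, Gng4, Rgs11, Rgs22 and Rgs9bp. Rgs11 was at 0.628 (WT) and 0.610 FPKM (β-arr1 KO). The other 4 rested on at most 10 estimated fragments in a library, and the interval of each included 1. Rgs22 was at 0.0819 and 0.213 FPKM, and Rgs9bp, the anchor of RGS9 in photoreceptors, was at 0.0490 and 0.0318 FPKM.

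**Figure D3:**
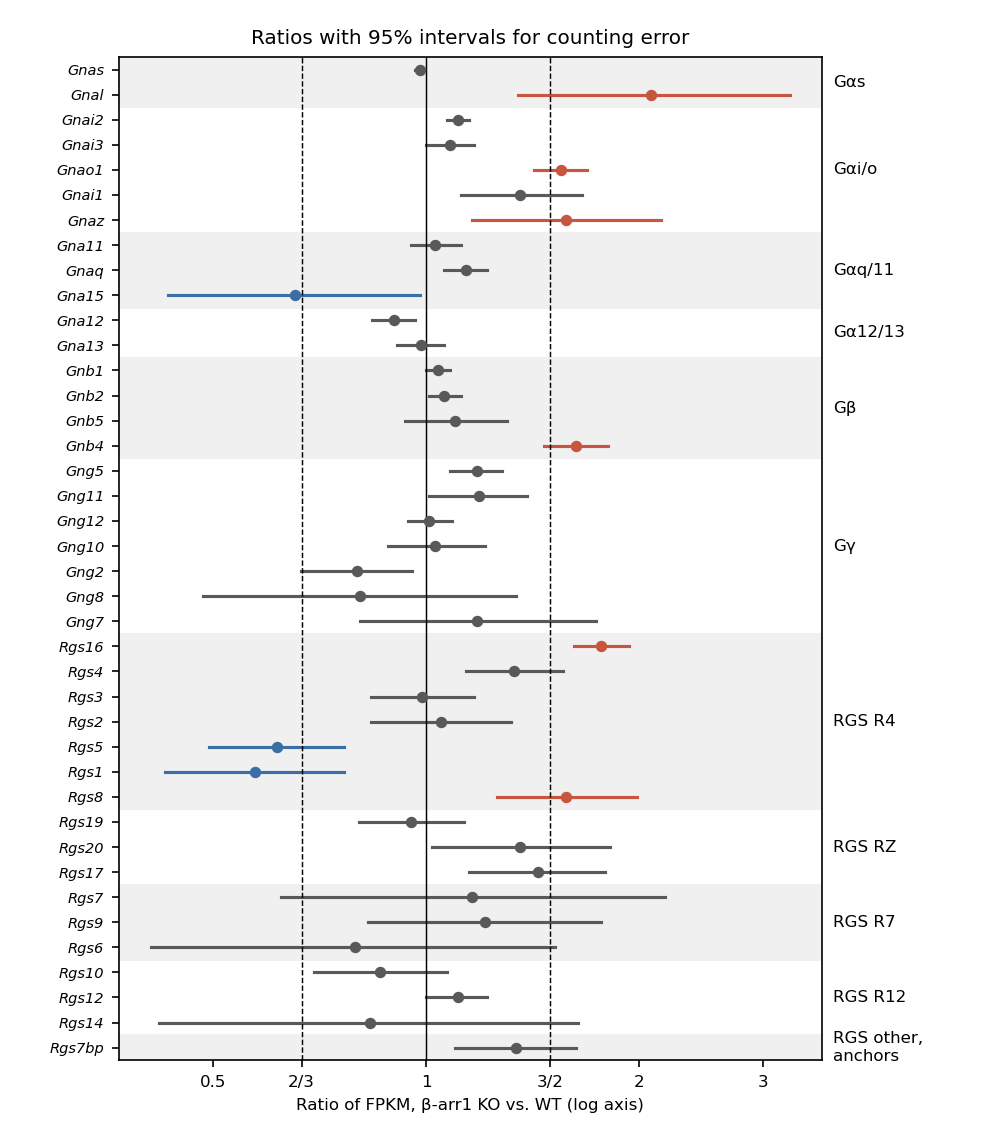
Ratio of FPKM, β-arr1 KO vs. WT (log axis), for the 40 analysed members, with lines for the 95% interval of counting error. Dashed lines mark 2/3 and 3/2, red marks the 6 members above and blue the 3 below. Only the interval of Rgs16 lies wholly beyond a limit.

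Of the 47 members, 8 lie on chromosome 1, and RGS genes of the R4 class form neighbouring pairs there. Rgs8 and Rgs16 are both on the plus strand, 42.7 kb apart, and both had ratios above 3/2, of 1.58 and 1.77. Rgs5 and Rgs4 are 45.7 kb apart on opposite strands, and their ratios were on different sides of 1, at 0.615 and 1.33, with intervals that did not overlap. Rgs2 and Rgs1 are 241 kb apart on the minus strand, with ratios of 1.05 and 0.573 and intervals that did not overlap. On chromosome 10, Gna15 and Gna11 are only 4.46 kb apart, with ratios of 0.653 and 1.03. Thus both members were past the same limit in the pair Rgs8 and Rgs16, and 1 member only was past a limit in the other pairs named here.

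**Figure D4:**
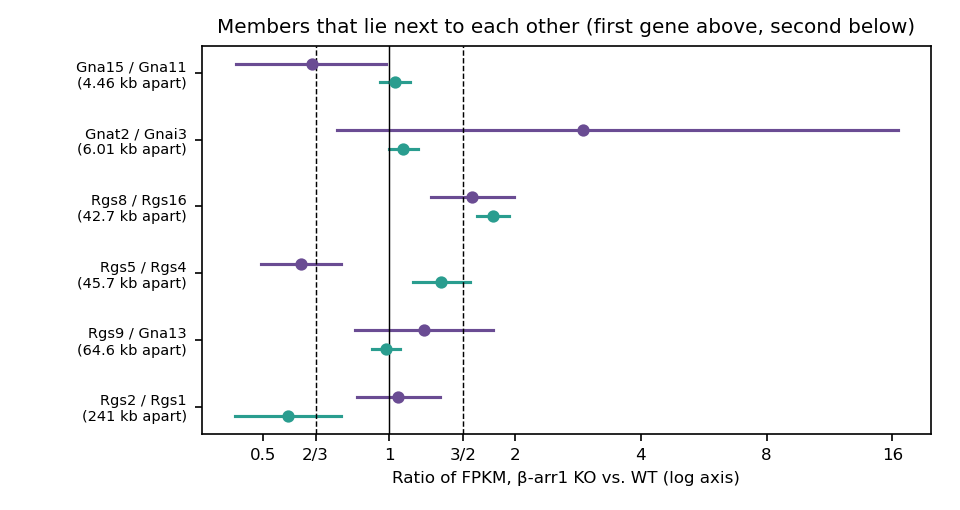
Ratio of FPKM, β-arr1 KO vs. WT (log axis), with 95% intervals of counting error, for pairs of members less than 300 kb apart, ordered by distance. The first gene of the pair is above and the second below. Rgs8 and Rgs16 are both beyond 3/2, whereas Rgs5 and Rgs4 lie on different sides of 1.

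The sequence upstream of these neighbouring genes is shown for the pair with like ratios (Rgs8 and Rgs16) and the pair with unlike ratios (Rgs5 and Rgs4). Windows of 250 bases before the annotated start were taken from RefSeq (GRCm38.p6) and each was found once on chromosome 1 of NCBIM37, the assembly also called mm9. Rgs8 lay at chr1:155499917-155500166 on the plus strand, Rgs16 at chr1:155587233-155587482 on the plus strand, Rgs5 at chr1:171585382-171585631 on the plus strand and Rgs4 at chr1:171677774-171678023 on the minus strand. RefSeq gives 3 starts for Rgs8, and the one shown is where the deposited row begins. Capitals mark matches, on either strand, to the letters searched, which were the cAMP response element TGACGTCA, its core TGACG, the AP-1 site TGANTCA, the GC box GGGCGG and the TATA box TATAA. The core is part of the full element.
Rgs8: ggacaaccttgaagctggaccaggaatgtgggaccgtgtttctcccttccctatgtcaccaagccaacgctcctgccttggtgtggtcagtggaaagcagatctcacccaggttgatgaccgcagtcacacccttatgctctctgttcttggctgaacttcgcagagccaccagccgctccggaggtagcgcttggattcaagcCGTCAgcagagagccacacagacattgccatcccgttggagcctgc
Rgs16: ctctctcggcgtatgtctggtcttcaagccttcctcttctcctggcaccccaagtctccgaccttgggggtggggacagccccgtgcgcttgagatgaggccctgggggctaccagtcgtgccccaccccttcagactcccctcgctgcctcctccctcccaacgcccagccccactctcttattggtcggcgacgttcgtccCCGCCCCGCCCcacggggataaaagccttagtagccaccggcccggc
Rgs5: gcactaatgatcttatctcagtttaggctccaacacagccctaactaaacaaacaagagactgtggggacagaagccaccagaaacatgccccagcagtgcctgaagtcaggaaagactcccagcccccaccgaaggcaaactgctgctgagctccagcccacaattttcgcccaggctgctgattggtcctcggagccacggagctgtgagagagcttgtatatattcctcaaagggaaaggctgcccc
Rgs4: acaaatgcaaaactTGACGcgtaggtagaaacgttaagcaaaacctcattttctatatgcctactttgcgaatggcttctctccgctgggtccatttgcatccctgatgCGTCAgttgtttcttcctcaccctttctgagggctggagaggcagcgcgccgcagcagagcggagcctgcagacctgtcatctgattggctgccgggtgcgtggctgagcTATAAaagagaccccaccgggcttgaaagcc

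No window of the 4 held the full cAMP response element, which was found in 1.55% of all 32851 RefSeq windows of this length. The core TGACG stood 46 bases before the start of Rgs8 and at 236 and 141 bases before that of Rgs4, and 17.8% of all windows held it. The GC box occurred at 47 and 42 bases before the start of Rgs16, as matches that overlap by 1 base, and in 32.7% of all windows. TATAA lay 31 bases before the start of Rgs4 and was present in 22.8% of all windows. None of these letters, and no AP-1 site (6.75% of all windows), was in the window of Rgs5. The neighbouring genes Rgs8 and Rgs16 thus shared no match. Of the 47 members, 35 had RefSeq windows, 47 windows in all. GC boxes were in 51.1% of these windows and the core TGACG in 23.4%. TATAA was in 19.1%, the AP-1 site in 6.38% and the full cAMP response element in 0%. The median GC content of these windows was 61.2%, beside 52.4% over all windows. A match of letters is not a binding site, and no binding was measured.

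Markers of other cell types were set beside the members. All 12 microglia markers were analysed, and 1 of them, Cd68, was below 2/3. Their median log2 ratio was -0.34, and they summed to 1265 (WT) and 978 FPKM (β-arr1 KO), with a ratio of 0.773. Cx3cr1 in this list had a ratio of 1.05 (interval, 0.951 to 1.15). Of the 13 analysed members with ratios under 1, Rgs1 (0.573), Rgs5 (0.615) and Gna15 (0.653) were below 2/3. Rgs10 (0.862) was within the limits, with an interval of 0.694 to 1.07. The part of microglia in these values was not tested. Of 9 markers of the oligodendrocyte lineage, 7 were analysed and 4 were above 3/2, with sums of 86.3 (WT) and 127 FPKM (β-arr1 KO), while Mog was listed in KO only, at 0.0662 FPKM. All 6 members above 3/2 (Gnal, Gnao1, Gnaz, Gnb4, Rgs8 and Rgs16) were higher in the same library by that rule, and none was set apart by these markers. Astrocyte markers were above 3/2 in 4 of 11 analysed genes, with a median log2 ratio of 0.45. In this list Gfap had a ratio of 1.02, and Glul and Gja1 were lower in KO. Their ratios were 0.742 (interval, 0.694 to 0.792) and 0.862 (interval, 0.785 to 0.947). The part of either lineage was not tested. Of 9 mural cell markers, 5 were analysed, and 0 of them were past the limits. Their sums of 5448 and 5133 FPKM were mostly Tagln (2915 and 2597 FPKM) and Acta2 (2478 and 2469 FPKM), genes of contractile cells. Anpep and Notch3, which are found in pericytes, had ratios of 0.723 (interval, 0.567 to 0.919) and 0.735 (interval, 0.654 to 0.825), and Myh11 was at 40.4 and 56.6 FPKM. Rgs5, which was not in that list, was at 0.615, and the part of mural cells in this value was not tested. Pdgfrb and Kcnj8 were not analysed here, and Higd1b was listed in KO only, at 0.359 FPKM. Abcc9 stayed below 1 FPKM, at 0.0291 (WT) and 0.0843 FPKM (β-arr1 KO). Its ratio of 2.89 (interval, 0.517 to 29.3) rested on an estimated 2 and 6 fragments. Of 8 endothelial markers, 7 were analysed, with 2 above 3/2 and 1 below 2/3, and they summed to 59.0 and 52.1 FPKM. All 4 analysed fibroblast markers of 5 were below 2/3, with sums of 608 and 316 FPKM. Among 7 skeletal muscle markers, 2 of 3 analysed were above 3/2, with sums of 30.1 and 55.9 FPKM. The sums were mostly Des, at 29.7 (WT) and 41.9 FPKM (β-arr1 KO). Those above 3/2 were Myog, at 0.160 (WT) and 4.12 FPKM (β-arr1 KO), and Actc1, at 0.0860 and 8.51 FPKM. Their ratios were 25.7 (interval, 6.78 to 218) and 99.0 (interval, 17.4 to 3945), from an estimated 2 and 1 fragments in WT. Myod1 was listed in KO only, at 0.968 FPKM, and Myh3 in WT only, at 0.0180 FPKM. Neuron markers, of which 3 of 9 were analysed, were within the limits and summed to 85.6 and 108 FPKM. Tubb3 (44.7 and 59.8 FPKM) and Stmn2 (36.6 and 43.4 FPKM) made up most of these sums. Rbfox3, Syt1, Snap25, Gad1 and Slc17a7 stayed below 1 FPKM in both libraries. The part of these cell types was not tested.

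Other genes of the pathway were described as a list. Of 19 such genes, 14 were analysed, 1 was above 3/2 and 0 were below 2/3, and their median log2 ratio was -0.14. The one past the limits was Plcb1, a phospholipase C that Gq activates, at 1.39 (WT) and 2.25 FPKM (β-arr1 KO), where the ratio was 1.62 and the interval 1.24 to 2.13. Plcb3 and Plcb4 had ratios of 1.08 and 0.978. The chaperones of α subunits Ric8a, listed under its older symbol Ric8, and Ric8b had ratios of 1.07 and 0.749. The GoLoco proteins Gpsm1, Gpsm2 and Gpsm3, which hold Gαi in its GDP form, had ratios of 0.907, 1.00 and 0.888. Gngt2, a γ subunit that the rule does not take in, was listed in KO only, at 8.87 FPKM. Its locus overlaps that of Abi3, and the rows at this place summed to 1.31 (WT) and 11.4 FPKM (β-arr1 KO). The WT row of Abi3, at 1.31 FPKM, was thus lower than the KO value of Gngt2, and no ratio was formed for Gngt2 itself.

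**Figure D5:**
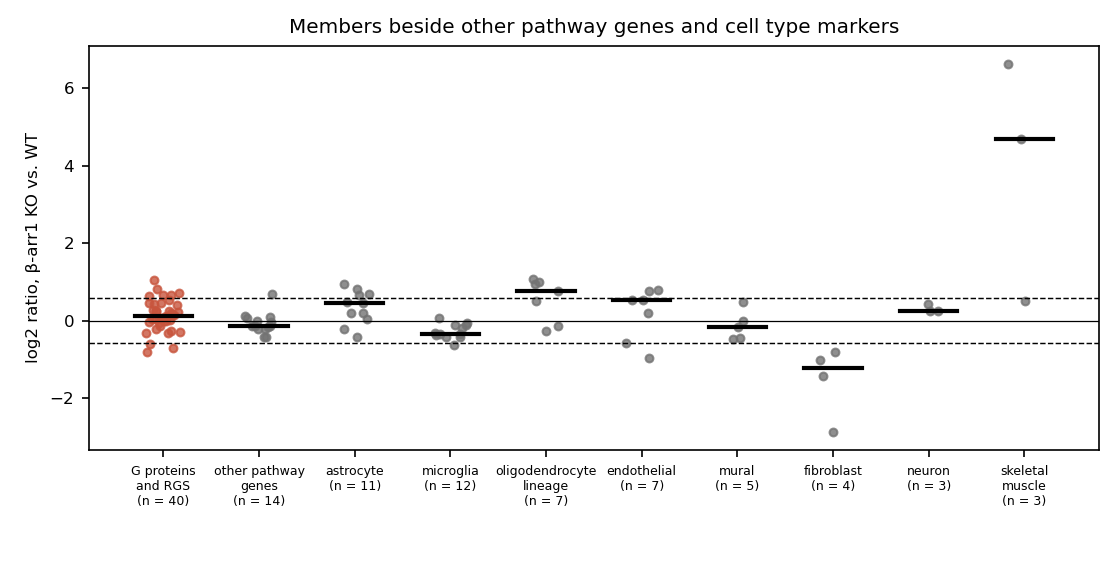
The log2 ratio, β-arr1 KO vs. WT, of each analysed gene in the G protein and RGS families (red), in the other pathway genes and in the cell type marker lists (gray), with bars at the medians and dashed lines at 2/3 and 3/2. The median is 0.12 for the members, -0.14 for the other pathway genes, -0.34 for microglia and 0.78 for the oligodendrocyte lineage.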

How the data were processed

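RNA-seq values of 1 WT and 1 β-arr1 KO library of cultured DG astrocytes were used. The authors aligned paired-end reads to mm9 with TopHat (version 1.4.0 per the labels), and deposited 1 table of FPKM values per library, made with Cufflinks, whose version is not given in the sources used here. The tables were joined by symbol, keeping the highest row of a repeated symbol, and genes listed in both that reached 1 FPKM in either were analysed, without a pseudocount. The limits of 3/2 and 2/3 are those of the study. No p-value was computed, as there are no replicates.

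Depth was estimated from values under 0.15 FPKM of genes with 1 GENCODE transcript over 1000 bases (425 in WT and 448 in KO), of which 68.5% and 68.3% lay within 5% of the value of 1, 2 or 3 fragments. Fragments per gene assume the longest GENCODE transcript, less 170 bases. Intervals are exact Clopper-Pearson at 95%, centred on the FPKM ratio. Expression of shorter transcripts would widen them, and reads shared by similar genes are not covered. Starts were raised by 1 to count from 1, after which 38.3% (WT) and 38.6% (KO) equalled GENCODE starts, against 3.07% and 3.11% as written.

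The members and lists were chosen with earlier results of these data known. Genes named in the text were the changed members, members of at least 20 FPKM, members in one table only from 1 FPKM, the highest of each subfamily, changed pathway genes and Arrb1. Further members, pathway genes and neighbours were named after their values were seen. Calls were tried on simulated data with counting error only and with larger changes than those of the changed members. Intervals were tried on simulated counts without a change. These trials therefore do not check the calls of the members. The tools were scipy 1.17.1, matplotlib 3.10.9, pandas 2.3.3 and numpy 2.4.6 in Python 3.11.15.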

Additional observations from a re-analysis of the deposited data

How the results depend on the processing

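No paired analysis was possible because there was 1 library per genotype, and no replicate could be left out. Of 13 other ways to count the members, the number above 3/2 (6 of 40) and the number below 2/3 (3 of 40) moved by over 1.5 times under these. With limits of 2 and 1/2 the numbers were 1 and 0. With 1 FPKM added to both libraries they were 3 and 1, since Gnal, Gnaz, Rgs8, Gna15 and Rgs5 then lay within the limits. Restriction to rows with the same bounds in both tables left 24 analysed members, of which 2 were above (Gnal and Rgs8) and 1 below (Rgs1). It removed Gnao1 and Rgs16, whose row starts differed by only 2 and 3 bases, so their calls were left out and did not move. A minimum of 5 FPKM left 3 above (Gnao1, Gnb4 and Rgs16). The share of all genes past the limits under these alternatives is not given here, so the numbers are a description only. Under each alternative that gives it, the median log2 ratio stayed positive, between 0.07 and 0.14. Among named members, the ratio of Gnal turned to 0.926 when overlapping rows were summed, because the larger rows of Chmp1b and Mppe1 enter the sum. Rescaling to the same upper quartile put Gnas at 0.962, outside its narrow counting interval. Rescaling shifted all log2 ratios by at most 0.03.

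Depth limits the low members. In 11 of the 40 analysed members, under 100 fragments were estimated in a library, and the fewest were 18.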
